A study of Mus musculus with 48 samples.

Results

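The 10 genes described here mark fibroblasts of the adventitia, the outer coat of an artery, and their activation. They are Pdgfra, Pdgfrb, Pi16, Dpt, Ly6a, Fap, Meox1, S100a4, Nt5e and Bnc2, and they were found by symbol in a table of 18782 genes measured in the thoracic aorta of 48 mice. All 10 passed the filter on low counts, which left 14431 genes to test. RNA was sequenced from wild-type C57BL/6J mice, with 1 library per mouse, and no group carried a transgene or a deletion. Male control (MaCon, n = 10) and female control (FeCon, n = 10) mice drank normal water from 3 weeks of age for 28 days. The other groups received 0.4% β-aminopropionitrile (BAPN), which blocks the lysyl oxidases that cross-link collagen and elastin, in their drinking water from 3 weeks of age for 28 days. Treated mice that developed a dissection or an aneurysm formed the groups MaAAD (n = 7) and FeAAD (n = 9), and treated mice without such a lesion formed MaNonAD (n = 4) and FeNonAD (n = 8). Treatment was assigned, but the split into NonAD and AAD followed the outcome in mice that survived to tissue collection, so mice lost to rupture are not represented.

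The adventitia holds fibroblasts that carry the receptor PDGFRα and secrete the collagen-rich coat of the vessel. A subset of them, found in many tissues and known by the genes Pi16, Dpt and Ly6a, is regarded as a resting, progenitor-like reserve, and after injury fibroblasts can take up an activated, matrix-remodelling state in which genes such as Fap and Meox1 are switched on. Several of the 10 genes are also used by other cells: Pdgfrb by pericytes and smooth muscle cells, Ly6a by endothelium and blood-forming cells, S100a4 by many leukocytes, and Nt5e by endothelium and lymphocytes. In bulk tissue a lower level can come from fewer cells of a type or from less RNA per cell, and these cannot be told apart.

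Levels are given as CPM, the usual depth-scaled unit, in which a gene's count is divided by its library's total after correction for composition by TMM in edgeR. Library totals lay between 13548003 and 17281262 counts, and the counts of the 10 genes between 28 and 19868 per library. Correlations between libraries on log2(CPM + 1) ranged from 0.908 to 0.996, and 3 lesion libraries had a mean correlation with their own group under 0.95: FeAAD5 (0.9106), MaAAD1 (0.9467) and FeAAD9 (0.9468). Several results are also given without these 3 libraries. The tissue carried the defining genes of an arterial wall, with 7 smooth muscle markers summing to a median of 41300 CPM in MaCon and 43200 CPM in FeCon, and no marker of the 13 cell-type and cell-cycle lists was at 0 in every library of a group. Per kilobase of exon and averaged over all libraries, the level was 283 CPM for Dpt, 211 for S100a4, 138 for Ly6a, 132 for Pi16 and 85.3 for Pdgfrb. It was 12.6 CPM per kilobase for Pdgfra, 3.49 for Meox1, 2.87 for Fap, 1.18 for Nt5e and 0.588 for Bnc2. With the longest transcript as the length in place of all exons, Pi16 and Ly6a changed places, as did Fap and Meox1.

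RefSeq promoters on GRCm38.p6 were matched for 6 of the 10 genes, and that of S100a4, which was higher with lesions in both sexes and whose window holds no annotated exon, is shown as an example. The 250 bases before the start of S100a4, a small calcium-binding protein, are chr3:90603520-90603769 on the plus strand. Capitals mark the only match among 8 motifs searched on both strands: TATA box (TATAAA), AP-1 (TGANTCA), TEAD (GGAATG), E-box (CAGCTG), GC box (GGGCGG), CRE (TGACG), and the NF-kB and CArG sites.
S100a4: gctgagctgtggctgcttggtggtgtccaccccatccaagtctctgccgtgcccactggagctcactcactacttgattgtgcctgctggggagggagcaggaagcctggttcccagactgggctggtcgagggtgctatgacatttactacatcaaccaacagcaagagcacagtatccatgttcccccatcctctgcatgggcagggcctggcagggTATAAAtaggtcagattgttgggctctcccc
The S100a4 window had a GC content of 57.2%, 2 CpG dinucleotides and a TATA box beginning 31 bases before the start, letters that 12.4% of 32851 promoters hold somewhere in such a window. The median promoter had a GC content of 52.4% and 6 CpG dinucleotides. In the window of Nt5e, which overlaps an annotated exon and is not shown, the GC content was 72.0% with 21 CpG dinucleotides and 4 GC boxes, which overlap in pairs, while 32.7% of promoters hold at least 1. A match is a match of letters only.

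The first question was which of the 10 genes differed between aortas with a lesion and control aortas of the same sex. In females 6 of 10 passed (edgeR quasi-likelihood test, Benjamini-Hochberg adjusted p under 0.05 over all tested genes), 5 higher and 1 lower, and in males 8 of 10 passed, all higher. Ly6a, Fap, Meox1, S100a4 and Bnc2 rose in both sexes, while Pi16 fell in females. Over all tested genes, 23.8% were higher and 20.6% lower in FeAAD than in FeCon. In MaAAD 18.9% were higher and 16.1% lower than in MaCon. The 5 and 8 of 10 higher exceeded these shares, and the 1 lower in females was near its share. The 10 genes were chosen with earlier results of these data known, and the part of that choice in the excess was not tested. The median log2 fold change of the 10 genes was 0.62 in females and 0.74 in males, against 0.00 and -0.03 over all genes. None of the 10 in females and 1 in males, Bnc2, also differed by at least 1 on the log2 scale, as did 12.7% of genes in females in either direction and 9.18% of genes in males upwards.

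**Figure D1:**
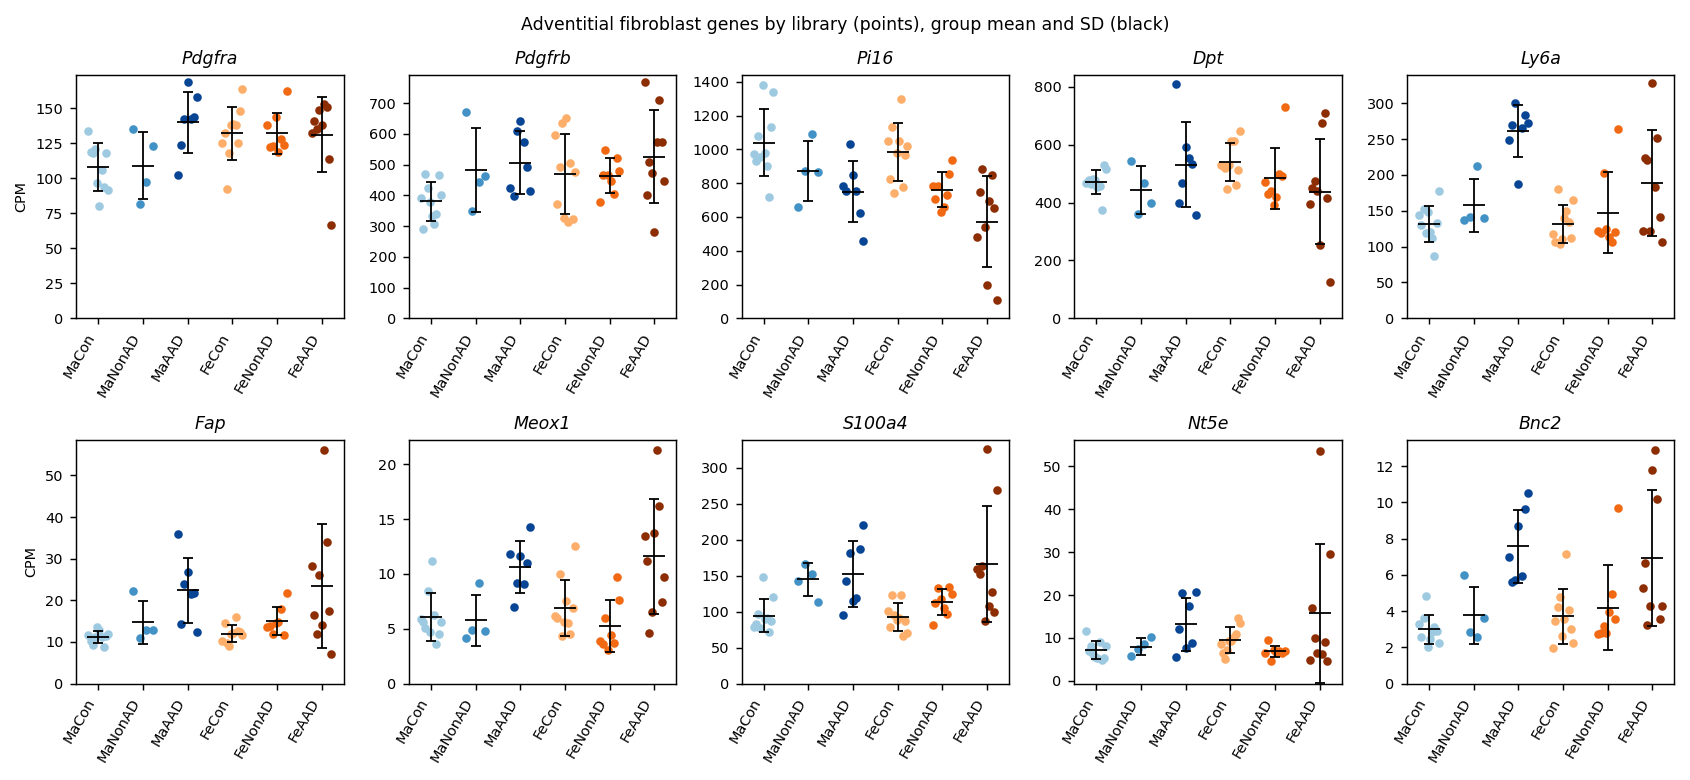
CPM of the 10 genes in each library (points) for the 6 groups, with group means and SD in black (n = 10, 4, 7, 10, 8 and 9 from left to right) and a separate linear vertical axis for each gene. Ly6a and Bnc2 in all 7 MaAAD libraries lay above every MaCon library, and 2 FeAAD libraries lay at the bottom for Pi16 and at the top for Nt5e.

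Among genes of resting adventitial fibroblasts, Pi16, which encodes a secreted peptidase-inhibitor-like protein, was the only 1 of the 10 that fell. It ranged from 740 to 1300 CPM in FeCon (median 1000) and from 108 to 883 CPM in FeAAD (median 655). All 9 FeAAD libraries were under the FeCon median and 6 of them under every FeCon library, although the ranges overlapped. The log2 fold change was -0.78 (SE 0.21, adjusted p = 0.00213). Without FeAAD5, FeAAD9 and MaAAD1 it was -0.51 (adjusted p = 0.00351). In males Pi16 ranged from 721 to 1380 CPM in MaCon (median 973) and from 458 to 1030 CPM in MaAAD (median 755). Of the MaAAD libraries, 6 of 7 were under the MaCon median, and the log2 fold change of -0.47 (adjusted p = 0.101, SE 0.22) did not pass. It passed when only the 2 groups were fitted (adjusted p = 0.0285) and without the 3 libraries (-0.48, adjusted p = 0.00754).

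Dpt encodes dermatopontin, a matrix protein that organises collagen fibrils, and did not pass in either sex. It ranged from 447 to 646 CPM in FeCon (median 528) and from 125 to 709 CPM in FeAAD (median 440), with a log2 fold change of -0.30 (adjusted p = 0.147, SE 0.17). In MaCon it ranged from 375 to 531 CPM (median 473) and in MaAAD from 358 to 808 CPM (median 534), and the difference of 0.17 on the log2 scale had an SE of 0.18 and an adjusted p of 0.482. The lesion groups spread to both sides of the controls, with 2 of 9 FeAAD libraries above and 5 below every FeCon library, and 4 of 7 MaAAD libraries above and 1 below every MaCon library. Without the 3 libraries the female difference in Dpt was -0.09 (adjusted p = 0.6) and the male difference 0.04 (adjusted p = 0.81).

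Ly6a, which encodes the surface antigen Sca-1, rose in both sexes. It ranged from 87.1 to 178 CPM in MaCon (median 131) and from 188 to 300 CPM in MaAAD (median 269), so the ranges did not overlap, with a log2 fold change of 0.98 (adjusted p = 3.18e-05, SE 0.18). In FeCon it ranged from 103 to 181 CPM (median 126) and in FeAAD from 106 to 328 CPM (median 183). Only 5 of 9 FeAAD libraries were above every FeCon library, and the log2 fold change was 0.52 (SE 0.17, adjusted p = 0.0128). The highest FeAAD library was FeAAD5, and without it the female difference was 0.38 (adjusted p = 0.0652). Without all 3 libraries named above it was 0.45 (adjusted p = 0.0278). Ly6a belongs to a family of similar neighbouring genes, and how reads shared between them were divided was not tested, although none of its deposited values was fractional.

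The receptors of platelet-derived growth factor did not pass in females and passed with small rises in males. Pdgfra, the general receptor of fibroblasts, ranged from 92.6 to 164 CPM in FeCon (median 135) and from 67.0 to 153 CPM in FeAAD (median 138), a log2 fold change of -0.01 (adjusted p = 0.964, SE 0.12). In males it ranged from 80.2 to 134 CPM in MaCon (median 112) and from 102 to 169 CPM in MaAAD (median 142). There 5 of 7 MaAAD libraries were above every MaCon library, and Pdgfra rose by 0.38 on the log2 scale (adjusted p = 0.0138, SE 0.12). The difference between the sexes in this response, 0.38 (SE 0.17, adjusted p = 0.251), did not pass.

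Pdgfrb, the receptor of mural cells and of many fibroblasts, ranged from 292 to 471 CPM in MaCon (median 385) and from 397 to 642 CPM in MaAAD (median 492). All 7 MaAAD libraries were above the MaCon median and 4 above every MaCon library, with a log2 fold change of 0.41 (adjusted p = 0.0398, SE 0.16). That call was lost when any 1 of MaCon2, MaCon7, MaCon8, MaAAD3, MaAAD4, MaAAD5 or MaAAD6 was left out (adjusted p from 0.0515 to 0.104). In females it ranged from 314 to 651 CPM in FeCon (median 484) and from 282 to 769 CPM in FeAAD (median 509), a log2 fold change of 0.17 (adjusted p = 0.388, SE 0.15) that was 0.29 without FeAAD5, FeAAD9 and MaAAD1 (adjusted p = 0.121). Over the 6 pericyte markers the summed level ranged from 1160 to 1690 CPM in MaCon and from 908 to 1420 CPM in MaAAD, and 1 of the 6 was lower and none higher in MaAAD. In females the sum ranged from 1130 to 1700 CPM in FeCon and from 601 to 1740 CPM in FeAAD, 2 of the 6 were lower and none higher in FeAAD, and the part of pericytes in the Pdgfrb level was not tested.

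Of the other 5 genes, Fap, Meox1, Bnc2 and S100a4 rose in both sexes, and Nt5e passed in males only. Fap encodes fibroblast activation protein, a surface protease of remodelling stroma. It ranged from 9.00 to 15.9 CPM in FeCon (median 12.0) and from 7.07 to 56.1 CPM in FeAAD (median 17.5), with 6 of 9 FeAAD libraries above and 1, FeAAD9, below every FeCon library. The log2 fold change was 0.97 (SE 0.22, adjusted p = 0.000341), and without the 3 libraries 1.18 (adjusted p = 4.83e-06). In males Fap ranged from 8.75 to 13.6 CPM in MaCon (median 11.3) and from 12.4 to 35.9 CPM in MaAAD (median 21.8). There 6 of 7 MaAAD libraries were above every MaCon library, and the log2 fold change was 1.00 (SE 0.23, adjusted p = 0.000644).

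Meox1 encodes a homeobox transcription factor that is switched on in activated fibroblasts. It ranged from 4.36 to 12.5 CPM in FeCon (median 6.04) and from 4.64 to 21.3 CPM in FeAAD (median 11.2), with a log2 fold change of 0.75 (adjusted p = 0.00914, SE 0.24). In MaCon it ranged from 3.61 to 11.2 CPM (median 5.64) and in MaAAD from 7.01 to 14.3 CPM (median 11.0), with a log2 fold change of 0.79 (adjusted p = 0.012, SE 0.25). In both sexes the ranges overlapped, and 8 of 9 FeAAD and 7 of 7 MaAAD libraries were above the median of their controls.

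Bnc2, which encodes a zinc-finger transcription factor of fibroblasts and other mesenchymal cells, had the largest log2 fold change of the 10 genes in males. It ranged from 2.04 to 4.84 CPM in MaCon (median 2.88) and from 5.58 to 10.5 CPM in MaAAD (median 6.99), without overlap, and the log2 fold change was 1.34 (SE 0.27, adjusted p = 0.000118). In females it ranged from 1.99 to 7.15 CPM in FeCon (median 3.51) and from 3.22 to 12.9 CPM in FeAAD (median 5.25), with a log2 fold change of 0.90 (adjusted p = 0.00384, SE 0.26). Only 3 of 9 FeAAD libraries were above every FeCon library.

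S100a4, also called fibroblast-specific protein although leukocytes carry it too, ranged from 66.3 to 123 CPM in FeCon (median 89.5) and from 86.6 to 326 CPM in FeAAD (median 152). Of the FeAAD libraries 6 of 9 were above every FeCon library, and the log2 fold change was 0.84 (SE 0.18, adjusted p = 0.000176). The highest values were 326 CPM in FeAAD5 and 269 CPM in FeAAD9, and without these and MaAAD1 the difference was 0.47 (adjusted p = 0.01). In males S100a4 ranged from 71.8 to 148 CPM in MaCon (median 88.2) and from 96.0 to 221 CPM in MaAAD (median 142), with a log2 fold change of 0.68 (adjusted p = 0.00441, SE 0.19).

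Nt5e encodes CD73, the surface enzyme that turns AMP into adenosine and a common marker of mesenchymal stromal cells. It ranged from 4.81 to 11.5 CPM in MaCon (median 6.56) and from 5.55 to 20.6 CPM in MaAAD (median 12.1), with 4 of 7 MaAAD libraries above every MaCon library. The log2 fold change was 0.90 (SE 0.34, adjusted p = 0.0326), and the call was lost without MaCon8, MaAAD3, MaAAD5 or MaAAD7 (adjusted p from 0.0543 to 0.0978). Without FeAAD5, FeAAD9 and MaAAD1 it was 1.03 (adjusted p = 0.000389). In females it ranged from 5.13 to 14.6 CPM in FeCon (median 9.27) and from 4.6 to 53.5 CPM in FeAAD (median 8.99). The 2 medians were close and the FeAAD range was set by FeAAD5 with 53.5 CPM and FeAAD9 with 29.5 CPM. The log2 fold change was 0.72 (SE 0.31, adjusted p = 0.0574), 0.20 without FeAAD5 (adjusted p = 0.583) and -0.20 without all 3 libraries (adjusted p = 0.516). It passed in DESeq2 (adjusted p = 0.0457), with library totals alone (0.0347), and without FeCon9, FeCon10, FeAAD1, FeAAD3, FeAAD4, FeAAD6, FeAAD7 or FeAAD8 (adjusted p from 0.0217 to 0.046).

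**Figure D2:**
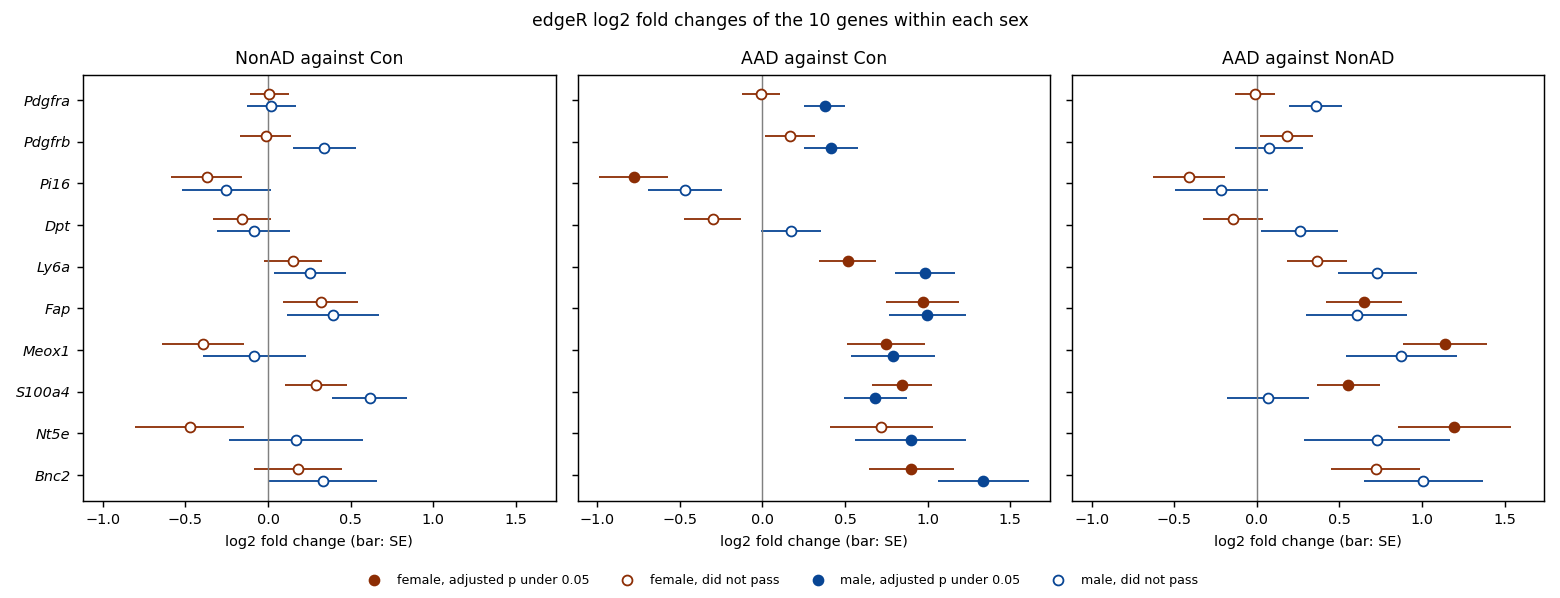
Log2 fold changes of the 10 genes with approximate SE bars in females (brown) and males (blue) for NonAD against Con, AAD against Con and AAD against NonAD, with filled points where the adjusted p was under 0.05 and a shared linear axis. No point is filled for NonAD against Con, 6 female and 8 male points are filled for AAD against Con, and 4 female points for AAD against NonAD.

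Markers of other cells moved with the same comparisons. All 8 macrophage markers were higher in AAD than in Con in both sexes, and their summed level ranged from 276 to 656 CPM in FeCon, 652 to 5770 in FeAAD, 229 to 587 in MaCon and 857 to 3810 in MaAAD. The 5 neutrophil markers, of which 5 were higher in females and 4 in males, summed to 1.13 to 5.76 CPM in FeCon, 5.88 to 881 in FeAAD, 1.54 to 10.2 in MaCon and 8.30 to 237 in MaAAD. All 7 smooth muscle markers were lower in both sexes, with sums of 30400 to 52000 CPM in FeCon, 13900 to 31800 in FeAAD, 27800 to 59900 in MaCon and 11800 to 29400 in MaAAD. All 5 cell cycle genes were higher in both sexes, and the B cell markers were higher for 4 of 4 in females and 2 of 4 in males. Of 7 endothelial markers 1 was higher and 1 lower in females and 2 were higher in males. Of the 4 chondrocyte-like markers 3 were higher in both sexes and 1 was lower in females, with sums of 61.1 to 113 CPM in FeCon, 119 to 482 in FeAAD, 54.2 to 109 in MaCon and 165 to 278 in MaAAD. In females 3 of 4 mesothelial and 3 of 5 striated muscle markers were lower, and none of these in males. The part of cell mixture in the rises of S100a4, Ly6a, Nt5e or the other genes was not tested.

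The second question was whether the genes differed from controls in treated aortas without a lesion. None of the 10 passed in either sex (edgeR), and DESeq2 called none. At an unadjusted edgeR p under 0.05 there were 0 in females and 1 in males, against 4172 and 1734 of the 14431 tested genes. Among all genes 6.87% were higher and 7.66% lower in FeNonAD than in FeCon, and 0.443% higher and 0.18% lower in MaNonAD than in MaCon. The median log2 fold change of the 10 genes was 0.00 in females and 0.21 in males. Pi16 ranged from 628 to 940 CPM in FeNonAD (median 757) with a log2 fold change of -0.37 (adjusted p = 0.249, SE 0.21). It passed when only those 2 groups were fitted (adjusted p = 0.0265) and in the fit without FeAAD5, FeAAD9 and MaAAD1 (adjusted p = 0.0429). In MaNonAD the Pi16 values were 658, 871, 1090 and 864 CPM, all within the MaCon range except 658.

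S100a4 had the largest change of the 10 in MaNonAD. Its values there were 143, 167, 153 and 114 CPM against 71.8 to 148 CPM in MaCon, with a log2 fold change of 0.61 (adjusted p = 0.221, SE 0.23). Fap in MaNonAD was at 22.2, 10.9, 12.9 and 12.9 CPM, and only the first of these lay above every MaCon library. In the same MaNonAD libraries Meox1 was at 4.13, 4.90, 9.20 and 4.81 CPM and Bnc2 at 5.99, 2.86, 2.56 and 3.61 CPM, with log2 fold changes of -0.08 (SE 0.31, adjusted p = 0.953) and 0.33 (SE 0.33, adjusted p = 0.769). The Meox1 value ran from -0.386 to 0.088 when single libraries were left out, and never passed. In FeNonAD the log2 fold changes were 0.32 for Fap (SE 0.23), -0.39 for Meox1 (SE 0.25), 0.29 for S100a4 (SE 0.19), -0.47 for Nt5e (SE 0.33) and 0.18 for Bnc2 (SE 0.27). The direction for Bnc2 turned without FeNonAD8, to -0.11 (adjusted p = 0.819), and in MaNonAD its value was 0.01 without MaNonAD1 (adjusted p = 0.998).

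Lesioned and lesion-free aortas of treated mice were then compared. In females 4 of the 10 passed, all higher in FeAAD than in FeNonAD, while 13.2% of all genes were higher and 5% lower, and 2 of them, Meox1 and Nt5e, differed by at least 1 on the log2 scale, as did 6.79% of genes upwards. This comparison shares its lesioned libraries with that of FeAAD and FeCon. In it 8 of 8 macrophage, 5 of 5 neutrophil, 5 of 5 cell cycle, 3 of 4 B cell and 3 of 4 chondrocyte-like markers were higher and 6 of 7 smooth muscle markers lower, and their part in the changes of the 4 genes was not tested. Meox1 ranged from 3.10 to 9.76 CPM in FeNonAD (median 4.15), all 9 FeAAD libraries were above that median, 5 were above every FeNonAD library, and the log2 fold change was 1.14 (SE 0.26, adjusted p = 0.00124). It passed in every alternative run. Nt5e ranged from 4.63 to 9.45 CPM in FeNonAD (median 6.75) with a log2 fold change of 1.19 (adjusted p = 0.0106, SE 0.34). The value was 0.68 without FeAAD5 (adjusted p = 0.129) and 0.28 without FeAAD5, FeAAD9 and MaAAD1 (adjusted p = 0.586).

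Fap ranged from 11.7 to 21.7 CPM in FeNonAD (median 14.2), and was 0.65 higher on the log2 scale in FeAAD (adjusted p = 0.044, SE 0.23). That call was lost without FeNonAD1, FeNonAD2, FeNonAD3, FeNonAD4, FeNonAD5, FeNonAD7, FeAAD1, FeAAD4, FeAAD6 or FeAAD7, with an adjusted p between 0.0537 and 0.212, and without FeAAD6, the highest library at 56.1 CPM, the difference was 0.38. Without FeAAD5, FeAAD9 and MaAAD1 the Fap difference was 0.86 (adjusted p = 0.00511). S100a4 ranged from 80.9 to 134 CPM in FeNonAD (median 115), and was 0.55 higher in FeAAD (SE 0.19, adjusted p = 0.0377). It no longer passed without FeNonAD1, FeNonAD2, FeNonAD4, FeNonAD5, FeNonAD6, FeAAD5 or FeAAD9, at adjusted p from 0.0538 to 0.196, and without FeAAD5 the difference was 0.37. Without FeAAD5, FeAAD9 and MaAAD1 the S100a4 difference was 0.18 (adjusted p = 0.581). With the replicate block, or with those 2 groups fitted alone, the calls of Fap, S100a4 and Nt5e were lost (adjusted p from 0.0725 to 0.18), as was that of Fap without the filter on low counts (0.0548). Bnc2 (0.72, SE 0.27, adjusted p = 0.0578) did not pass, but did so without FeNonAD8 (1.02, adjusted p = 0.00398), the highest FeNonAD library at 9.68 CPM. It passed as well without FeAAD3, FeAAD4, FeAAD8 or FeAAD9 (adjusted p from 0.0259 to 0.0478), with the replicate block (0.0463) and in DESeq2 (0.0425). Ly6a (0.36, adjusted p = 0.16) passed only without FeNonAD8 (0.54, adjusted p = 0.0249).

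In males none of the 10 passed between MaAAD and MaNonAD (edgeR), where 0.388% of all genes were higher and 0.0208% lower. At an unadjusted p under 0.05 there were 4, namely Pdgfra, Ly6a, Meox1 and Bnc2, against 2694 of the 14431 tested genes. The largest log2 fold changes were 1.01 for Bnc2 (SE 0.36, adjusted p = 0.108), 0.87 for Meox1 (SE 0.34, adjusted p = 0.135) and 0.73 for Ly6a (SE 0.24, adjusted p = 0.0822). Ly6a was at 137, 141, 213 and 140 CPM in MaNonAD and passed in DESeq2 (adjusted p = 0.0415). Of the cell-type and cell-cycle markers only 1 of 8 macrophage markers passed in edgeR, higher in MaAAD. Median log2 fold changes were 1.39 for macrophage, 3.72 for neutrophil and 1.705 for cell cycle markers. They were -0.59 for smooth muscle and -1.22 for B cell markers, and the part of these cells was not tested. In the fit without FeAAD5, FeAAD9 and MaAAD1, 4 of the 10 passed in this comparison, all higher in MaAAD, where that fit put 9.11% of all genes higher and 5.86% lower: Pdgfra (0.42, adjusted p = 0.0271), Ly6a (0.74, adjusted p = 0.0204), Nt5e (0.86, adjusted p = 0.0469) and Bnc2 (1.02, adjusted p = 0.0479).

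Between the sexes none of the 10 passed within Con, NonAD or AAD in edgeR or DESeq2. In edgeR 2, 0 and 1 had an unadjusted p under 0.05, against 4206, 934 and 321 of the 14431 tested genes. Over all genes 14.3% differed between MaCon and FeCon, 0.0624% between MaNonAD and FeNonAD and 0.0901% between MaAAD and FeAAD. The 2 in control aortas were Pdgfra and Pdgfrb, both lower in males. Pdgfra averaged 108 ± 16.9 CPM in MaCon (SD, n = 10) and 132 ± 19.0 CPM in FeCon (SD, n = 10), a log2 difference of -0.29 (SE 0.11, adjusted p = 0.0724). It passed without MaCon1 (adjusted p = 0.0432), without FeCon3 (0.0251) and without FeAAD5, FeAAD9 and MaAAD1 (0.0217). Pdgfrb averaged 381 ± 63.1 CPM in MaCon (SD, n = 10) and 469 ± 131 CPM in FeCon (SD, n = 10), with an adjusted p of 0.164. In lesioned aortas Ly6a averaged 261 ± 36.1 CPM in MaAAD (SD, n = 7) and 189 ± 74.0 CPM in FeAAD (SD, n = 9), a log2 difference of 0.47 (SE 0.19, edgeR adjusted p = 1.00).

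The difference between the sexes was also tested within each response. It passed for none of the 10 in the response to BAPN with a lesion, without a lesion, or in the step from NonAD to AAD, and for 1.34%, 0.416% and 0% of all genes. At an unadjusted p under 0.05 the counts for the 10 were 1, 0 and 0, against 2220, 1752 and 150 of all genes. For the lesion response the differences, male minus female, ran from -0.16 for S100a4 (SE 0.27) to 0.48 for Dpt (SE 0.25). Without FeAAD5, FeAAD9 and MaAAD1 the difference was 0.30 for S100a4 and 0.13 for Dpt, neither of which passed, and Nt5e passed at 1.23 (adjusted p = 0.0248), against 0.18 (SE 0.46, adjusted p = 0.895) with them. In the fit without them 5.31% of all genes passed this test.

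Within each gene the 6 groups were ordered by mean, and few neighbours in that order stood apart. The step exceeded the larger of the 2 SDs only for Pdgfrb from MaCon (381) to FeNonAD (464 CPM), for Meox1 from FeCon (6.90) to MaAAD (10.6 CPM) and for S100a4 from FeNonAD (113) to MaNonAD (145 CPM). FeAAD and MaAAD were the 2 highest groups for Ly6a, Fap, Meox1, S100a4, Nt5e, Bnc2 and Pdgfrb, and the 2 lowest for Pi16. By coefficient of variation FeAAD was the most spread of the 6 groups for every gene but Pdgfra and Bnc2. The value was 104% for Nt5e, 63.3% for Fap, 48.7% for S100a4 and 47.5% for Pi16, against 30.9%, 17.4%, 20.7% and 17.3% in FeCon. For Dpt it was 41.5%, with MaAAD next at 28.0%. The next group was close for Meox1 (45.1%, FeNonAD 44.8%), Ly6a (39.2%, FeNonAD 38.4%) and Pdgfrb (28.6%, MaNonAD 28.3%).

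**Figure D3:**
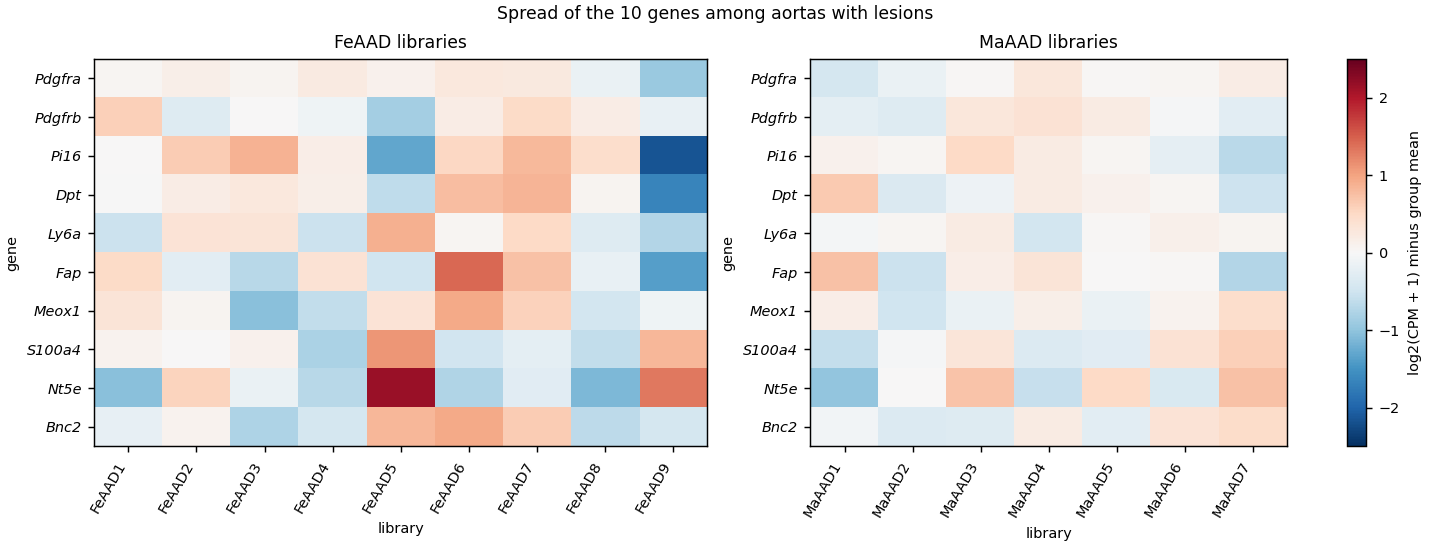
Deviation of log2(CPM + 1) of the 10 genes (rows) from the group mean in each of 9 FeAAD and 7 MaAAD libraries (columns), red above and blue below the mean. FeAAD5 and FeAAD9 were low for Pi16 and Dpt and high for S100a4 and Nt5e, and MaAAD7 had the same signs at smaller size.

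Among female lesioned aortas, 2 libraries with low Pi16 and Dpt had high S100a4 and Nt5e. FeAAD5 was at 195 CPM for Pi16, 255 for Dpt, 326 for S100a4 and 53.5 for Nt5e. FeAAD9 was at 108 CPM for Pi16, 125 for Dpt, 67.0 for Pdgfra, 7.07 for Fap, 269 for S100a4 and 29.5 for Nt5e. These 2 libraries had the lowest Pi16 and Dpt and the highest S100a4 and Nt5e of their group. The summed level of the 5 neutrophil markers was 881 CPM in FeAAD5, 200 CPM in FeAAD9 and 237 CPM in MaAAD7, against 5.88 to 54.8 CPM in the other lesioned aortas. The sum of the cell cycle genes was 422, 292 and 220 CPM in those 3 libraries, against 29.1 to 159 CPM in the others. The sum of the macrophage markers was 5770, 947 and 3810 CPM in the same 3. Over all 48 libraries, with group means removed, Nt5e and S100a4 had a Pearson r of 0.72 and 0.69 with the neutrophil sum, Pi16 and Dpt of -0.66 and -0.57, and Ly6a of 0.59 with the macrophage sum. Values of 0.5 or more were also seen for Pi16 with the endothelial sum (0.66), Meox1 and Bnc2 with the macrophage sum (0.52 and 0.50), and S100a4, Nt5e and Bnc2 with the cell cycle sum (0.52, 0.53 and 0.50), and values of -0.5 or less for S100a4 with the adipocyte sum (-0.53) and for S100a4 and Nt5e with the Schwann cell sum (-0.50 and -0.59). The Spearman rho with the neutrophil sum was smaller, 0.46 for Nt5e, 0.48 for S100a4, -0.36 for Pi16 and -0.41 for Dpt. The values are a description over libraries of 6 groups, and the part of neutrophils, macrophages or dividing cells in the Nt5e and S100a4 levels was not tested.

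Among the 45 pairs of the 10 genes, the Pearson r of deviations from the group means over 48 libraries had a median of 0.24 and was above 0 for 34 pairs. Pi16 and Dpt had the highest value, 0.81, and Dpt and Nt5e the lowest, -0.54. Dpt and Fap had an r of 0.80, although Fap rose and Dpt did not pass with lesions, and S100a4 and Nt5e had an r of 0.53. Pdgfra and Pdgfrb, the 2 receptors, had an r of 0.17. By rank, the Spearman rho of Pi16 was -0.01 with S100a4 and -0.22 with Nt5e, and that of Dpt was -0.30 with S100a4 and -0.33 with Nt5e. The rho was 0.645 for Pi16 and Dpt, 0.594 for Dpt and Fap and 0.279 for S100a4 and Nt5e. Both these negative and these positive values were thus smaller by rank. Ly6a had a positive r with both S100a4 (0.37) and Nt5e (0.29).

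**Figure D4:**
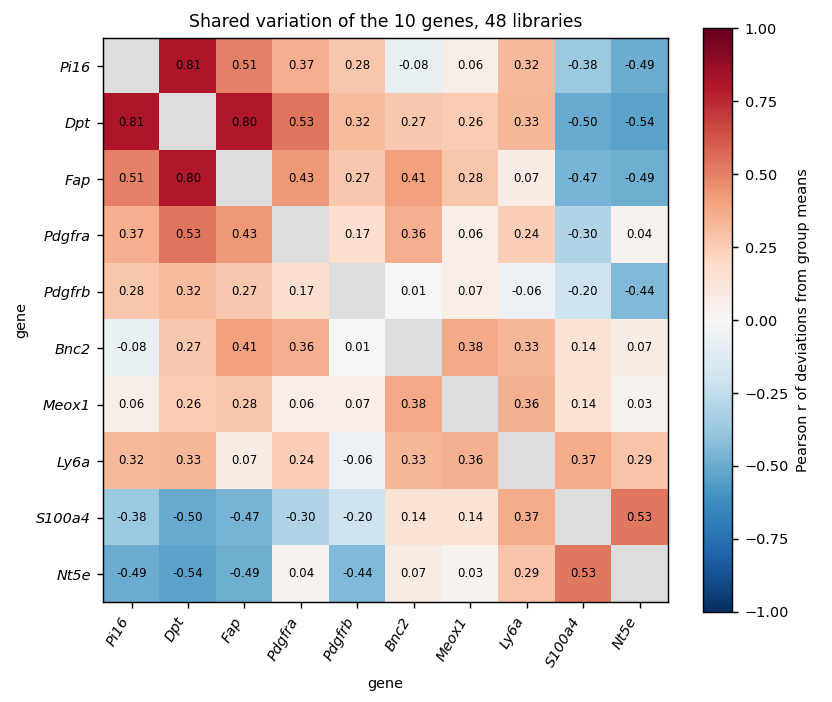
Pearson r of the deviations of log2(CPM + 1) from the group means over 48 libraries for each pair of the 10 genes, both axes listing the genes and red standing for positive r. A red block joins Pi16, Dpt and Fap (0.51 to 0.81), where the Spearman rho ran from 0.243 to 0.645. S100a4 and Nt5e are blue against it (-0.38 to -0.54), where the rho ran from -0.01 to -0.35.

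The genes most like each member were sought by the same measure among 13709 other genes averaging at least 10 counts. For Pi16 they were Entpd2 (r = 0.95), Clec3b (0.93) and Fbln1 (0.93), and for Dpt they were Dcn (0.92), which encodes the proteoglycan decorin, C1s1 (0.91) and C1ra (0.88). For Pdgfra they were Man1a (0.78), Kctd12 (0.77) and Abca9 (0.76), and for Pdgfrb Fmnl3 (0.87), Arhgef40 (0.82) and Ephb3 (0.81). Genes near Fap were Mmp2 (0.84), a gelatinase, Capn6 (0.84) and Gal3st1 (0.84), and near Bnc2 were Col12a1 (0.73), Fbn2 (0.72) and Slit2 (0.72), all 3 encoding secreted proteins. Genes near Meox1 were Ptk7 (0.75), Spns2 (0.73) and Wnt2 (0.69). Ly6a lay nearest to Npl (0.86), Lbp (0.81) and Ly6c1 (0.80), the last a member of its own family. S100a4 lay nearest to Lgals1 (0.87), which encodes galectin-1, Fxyd5 (0.86) and Anxa2 (0.85). Genes near Nt5e included Cd24a (0.85) and Lrrc59 (0.82).

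Genes related to the 10 were counted in 5 lists without the 10 themselves. The lists were chosen with earlier results of these data known, and the part of that choice in the counts was not tested. Of 18 other fibroblast activation genes, 15 were higher and 1 lower with lesions in each sex, against the background shares of 23.8% higher in females and 18.9% in males. Cthrc1, which encodes a secreted protein of remodelling fibroblasts, rose by 5.48 on the log2 scale in FeAAD (adjusted p = 2.14e-09, SE 0.62) and by 5.42 in MaAAD (SE 0.62, adjusted p = 9.43e-09). Timp1, an inhibitor of matrix proteases, rose by 4.35 in FeAAD (SE 0.55) and Col8a1, a short-chain collagen, by 4.11 in MaAAD (SE 0.59). The exception was Aebp1, which fell by 0.30 in FeAAD (SE 0.11, adjusted p = 0.0236) and fell by 0.32 in MaAAD (SE 0.12, adjusted p = 0.0321). In treated aortas without lesions, where none of the 10 genes passed, 6 of the 18 were higher in FeNonAD and 3 in MaNonAD, against 6.87% and 0.443% of all genes. Cthrc1 rose there by 2.83 in FeNonAD (SE 0.60, adjusted p = 0.00131) and by 3.08 in MaNonAD (SE 0.67, adjusted p = 0.0133), and Col8a1 by 1.96 (SE 0.54, adjusted p = 0.0117) and 2.77 (SE 0.63, adjusted p = 0.0202). Among the cell-type and cell-cycle markers of the same comparisons, 4 of 5 cell cycle genes were higher in FeNonAD, with sums from 6.83 to 15.5 CPM in FeCon and from 6.07 to 45.5 CPM in FeNonAD. In FeNonAD 1 of 4 B cell markers was higher, 1 of 4 chondrocyte-like markers was higher and 1 lower, and 1 of 7 smooth muscle, 1 of 7 endothelial and 1 of 4 mesothelial markers were lower. In MaNonAD 3 of 4 B cell markers were higher, with sums from 0.802 to 5.3 CPM in MaCon and from 6.62 to 17.9 CPM in MaNonAD, as was 1 of 4 chondrocyte-like markers. No macrophage, neutrophil, T cell or pericyte marker passed in either sex, and the part of these cells in the list's counts was not tested.

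**Figure D5:**
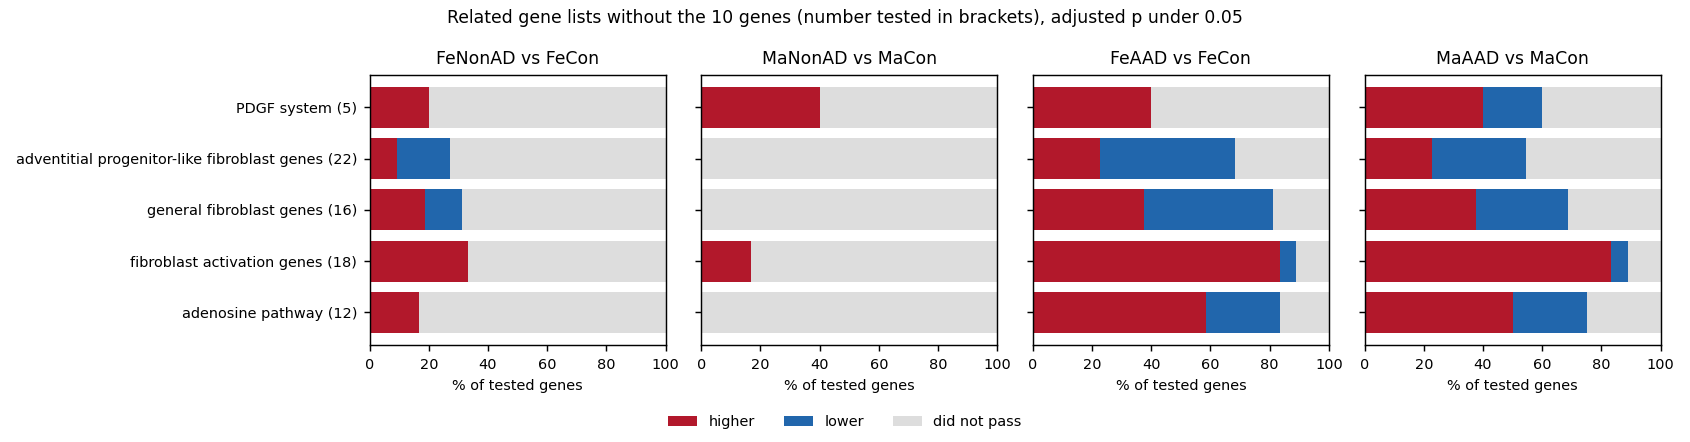
Percent of tested genes in 5 related lists, the 10 genes left out, that were higher (red), lower (blue) or did not pass (grey) at an adjusted p under 0.05 in 4 comparisons, with the number tested in brackets. Of 18 activation genes 15 were higher in both AAD panels, while the progenitor-like list was split, with 5 of 22 higher in both and 10 and 7 lower.

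The progenitor-like list, the company of Pi16, Dpt and Ly6a, held genes that rose and genes that fell. Of 22 other genes 5 were higher and 10 lower in FeAAD, and 5 were higher and 7 lower in MaAAD, while 20.6% and 16.1% of all genes were lower and 23.8% and 18.9% higher, so the share of higher genes was near the background. Sfrp4, a secreted Wnt antagonist, rose by 1.51 in FeAAD (SE 0.28, adjusted p = 1.93e-05) and by 2.13 in MaAAD (SE 0.29, adjusted p = 2.52e-07). Thy1, a surface glycoprotein of fibroblasts and T cells, rose by 1.32 in FeAAD (SE 0.20), and Has1, a hyaluronan synthase, by 2.33 in MaAAD (SE 0.52). Limch1 fell by 1.61 in FeAAD (SE 0.22, adjusted p = 7.13e-08) and fell by 1.46 in MaAAD (SE 0.23, adjusted p = 3.05e-06). Igfbp6, an insulin-like growth factor binding protein, fell by 1.18 in FeAAD (SE 0.28) and Efhd1 fell by 0.84 in MaAAD (SE 0.17). In FeNonAD 2 of 22 were higher, Sfrp4 (0.82) and Cd248 (0.61), and 4 lower, Limch1 (-0.86) and Igfbp6 (-0.81) the most, against 6.87% higher and 7.66% lower of all genes, and in MaNonAD none passed.

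Genes of fibroblasts in general were also split. Of 16 other than Pdgfra and Bnc2, 6 were higher and 7 lower in FeAAD, and 6 higher and 5 lower in MaAAD, against 23.8% and 20.6% of all genes in females and 18.9% and 16.1% in males. The collagen genes Col1a1 and Col3a1 rose in FeAAD by 1.28 (SE 0.16) and 1.14 (SE 0.15), and Col1a1 and Lum, which encodes a collagen-binding proteoglycan, rose in MaAAD by 1.14 (SE 0.17) and 1.61 (SE 0.22). Gsn, an actin-severing protein, fell by 1.29 in FeAAD (SE 0.17) and fell by 0.90 in MaAAD (SE 0.18), and Ogn, another matrix proteoglycan, fell by 0.94 in FeAAD (SE 0.21) and fell by 1.05 in MaAAD (SE 0.23). In FeNonAD Col1a1 (0.64) and Col3a1 (0.61) were among 3 that were higher, and Gsn (-0.53) and Fbln1 (-0.46) were the 2 that were lower, while 6.87% of all genes were higher and 7.66% lower.

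Among the ligands of the 2 PDGF receptors, Pdgfc rose in all 4 comparisons with controls. Its log2 fold change was 1.09 in FeAAD (SE 0.13, adjusted p = 4.64e-09), 1.31 in MaAAD (SE 0.13, adjusted p = 1.33e-09), 0.65 in FeNonAD (SE 0.13, adjusted p = 0.00068) and 0.84 in MaNonAD (SE 0.16, adjusted p = 0.00242). Pdgfb rose by 0.68 in FeAAD (SE 0.17), by 1.01 in MaAAD (SE 0.18) and by 1.06 in MaNonAD (SE 0.21). Pdgfd fell by 0.69 in MaAAD (SE 0.20, adjusted p = 0.00622). The receptors themselves changed by at most 0.41 on the log2 scale in any of these comparisons.

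Around Nt5e, 12 other genes of the adenosine pathway were tested. In FeAAD 7 were higher and 3 lower, and in MaAAD 6 were higher and 3 lower, and the share of lower genes was near that of all genes (20.6% in females and 16.1% in males, with 23.8% and 18.9% higher). Adora2b, a receptor of adenosine, rose by 2.06 in both FeAAD (SE 0.36, adjusted p = 1.07e-05) and MaAAD (SE 0.38, adjusted p = 2.61e-05), and Ada, which breaks adenosine down, by 1.37 in FeAAD (SE 0.23) and 1.14 in MaAAD (SE 0.24). Entpd1 and Entpd2 encode ectonucleotidases of the cell surface. The log2 fold change of Entpd1 was -0.73 in FeAAD (SE 0.15) and -0.50 in MaAAD (SE 0.16), and that of Entpd2, the gene nearest to Pi16, was -0.70 in FeAAD (SE 0.19) and -0.64 in MaAAD (SE 0.20). In FeNonAD the transporters Slc29a2 (0.83, SE 0.20) and Slc29a1 (0.32, SE 0.10) were the 2 of 12 that were higher, against 6.87% of all genes, and in MaNonAD none passed.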

How the data were processed

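Strand-specific RNA-seq libraries were made from mRNA of the thoracic aorta of 48 mice. The authors deposited expected counts per gene, not scaled to depth; the submitters' processing notes name Bowtie2, RSEM 1.3.1 and GRCm39, and whether strand was used in counting was not given in the sources used here. Of the deposited values 4.99% were not whole and were rounded. No value of the 10 genes was affected.

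Groups came from the labels. Counts were tested with edgeR 4.0.16 in R 4.3.3 (filterByExpr, TMM, robust quasi-likelihood fit with 6 group means over 48 libraries), with Benjamini-Hochberg adjustment over 14431 genes. Each SE was approximated as the absolute log2 fold change over the square root of F. The script was tested on simulated data. Alternatives were DESeq2 1.42.0, its size factors, library totals alone, the replicate number as a block, no filter on low counts, no robust step, the compared groups alone, a minimum log2 fold change of 1, and leaving out each library. Leaving out the 3 libraries that correlated least with their groups was chosen after seeing the data. Lengths and promoters came from GENCODE M21 and RefSeq on GRCm38, matched by symbol. The table held no coordinates. Likeness was Pearson's r of log2(CPM + 1) with group means removed. Nearest genes were the 3 of highest r, of which 1 is not reported here, and list genes named were the 2 largest rises and falls that passed against controls. The 10 genes and all lists were chosen with earlier results of these data known. Python 3.11.15 was used for summaries. Library totals were 13548003 to 17281262 counts. Each library came from a different mouse.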

Additional observations from a re-analysis of the deposited data

Results flagged for a closer look

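In 6 of 60 groups of values, 1 library stood apart from the rest of its group by Dixon's criterion, where chance gives about 1 in 20 groups, or 3. Pdgfra was at 67.0 CPM in FeAAD9, against 114 to 153 CPM in the other FeAAD libraries. Dpt was at 375 CPM in MaCon8, against 454 to 531 CPM in the other MaCon libraries, and at 730 CPM in FeNonAD8, against 393 to 497 CPM. Ly6a was at 213 CPM in MaNonAD3, against 137 to 141 CPM, and at 188 CPM in MaAAD4, against 249 to 300 CPM. Bnc2 was at 9.68 CPM in FeNonAD8, against 2.73 to 4.96 CPM in the other FeNonAD libraries. FeNonAD8 accounted for 2 of these values.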

How the results depend on the processing

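Of 3360 log2 fold changes of single genes recomputed under the alternatives, 3290 kept their side of the threshold, 39 lost a call and 31 gained one. Of the 3290, 3159 kept their direction and 131 changed sign without passing in either fit, and no value that passed in either fit changed sign. No scaling moved the median of all genes by more than 0.0747 on the log2 scale. With a minimum log2 fold change of 1 as well, the genes passing fell to 0 of 10 for FeAAD against FeCon, 1 for MaAAD against MaCon and 2 for FeAAD against FeNonAD. With the compared groups alone, 1 passed for FeNonAD against FeCon and 1 for FeAAD against FeNonAD, and DESeq2 called 1 for MaAAD against MaNonAD. Without FeAAD5, FeAAD9 and MaAAD1, 1 passed for FeNonAD against FeCon (20% of all genes in that fit), 2 for FeAAD against FeNonAD (8.53%), 4 for MaAAD against MaNonAD (15%), 1 for MaCon against FeCon (20.3%) and 1 for the sex difference in the AAD response (5.31%). Leaving out single libraries gave 2 to 6 for FeAAD against FeNonAD and 0 to 1 for MaCon against FeCon. For the pairing, same-numbered libraries had a mean correlation of deviations between -0.066 and 0.16, and in no comparison was every pair over 0.1, so they share only a number. The replicate block left 2 for FeAAD against FeNonAD and moved no other count by over 1.5 times. The cause of these changes was not tested. MaNonAD held 4 libraries, the fewest of the 6 groups.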
